A study of Danio rerio with 4 samples.

Results

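The hypoxia-responsive genes described here are 7 zebrafish genes: egln3, p4ha2, ero1a, slc2a1a, pfkfb3, ldha and vegfaa. They were chosen by name, on their copper differences in these same 4 arrays, from a total of 13366 genes that the array's RefSeq accessions named. All their probes were taken, which gave 11 of 25957 named probes: 3 for p4ha2, 2 each for egln3 and ldha, and 1 each for the other genes. Because the choice used the arrays, every copper difference below is a description and carries no test.

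Cells measure oxygen through prolyl hydroxylases, which use oxygen to modify the alpha subunits of the hypoxia-inducible factor and so mark them for degradation. When oxygen is short the alpha subunits persist, pair with a beta subunit and switch on genes for glucose uptake, glycolysis, lactate production, collagen modification and vessel growth. The prolyl hydroxylases need iron, and the pathway is known to respond to metals as well as to oxygen. In zebrafish embryos the same pathway works in a small, water-bathed body whose heart, blood and gut form within the first days of life.

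Whole zebrafish embryos (Danio rerio) were measured in 4 groups of 1 array each. These were control embryos at 24 hours post fertilization (hpf), embryos in 3.9 µM copper at 24 hpf, control embryos at 96 hpf, and embryos in 3.9 µM copper at 96 hpf; no strain or transgene is given in the labels. Total RNA was labelled with Cy3 and hybridised to one-colour Agilent arrays. How many embryos were pooled for a sample is not given in the sources used here.

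With 1 array per group, a copper difference at an age compares 1 array with 1 other array and has no replicate check. The error beside such a difference is the scanner software's own estimate for the spots, which was between 10.0% and 11.7% of the signal for the 11 probes. It covers the spot and its background, not embryos, RNA preparation or hybridisation. A difference of 2-fold, or 1 on the log2 scale, was the threshold for counting a probe as higher or lower.

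Copper and control below follow the sample labels, but the scanner files' own names and the authors' deposited table give the opposite assignment at both ages. All 5555 probes in the authors' deposited table at 24 hpf, and all 2964 at 96 hpf, had the opposite sign to the labels. Metallothionein mt2, a metal-binding protein gene that responds to metals, was brighter on the copper-labelled array with 3 of 3 probes at both ages, by 0.03 and 0.55 on the log2 scale for its brightest probe. The zinc exporter gene slc30a1a, also metal-responsive, was brighter there by 0.24 and 0.40. With a spot error of 0.204, as for the brightest egln3 probe, slc30a1a lies within 2 errors at both ages. The brightest mt2 probe does so at 24 hpf. The dimmer mt2 probes gave 0.74 and 0.98 at 24 hpf, where dimmer probes gave higher differences across the array. At 96 hpf they gave 0.60 and 0.58, so all 3 mt2 probes lay beyond 2 such errors at that age. These values leave the assignment unsettled. If the file names hold, each copper difference below has the opposite sign and the same size.

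The scanner software marked 33533 to 36469 probes per array as well above background and no spot as saturated. The median signal was 367 on the copper-labelled array at 24 hpf and between 162.3 and 194.5 on the others, so that array stood apart before normalization. All 11 probes of the 7 genes were well above background on all 4 arrays. Values below are log2 signals after quantile normalization, which gives all arrays the same distribution, and levels of different probes are not compared. The brightest probe of a gene is called its probe 1. In whole embryos, fewer cells of a type and less RNA per cell cannot be told apart.

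At 24 hpf, egln3, p4ha2, ero1a, pfkfb3 and ldha were lower on the copper-labelled array by at least 2-fold with at least 1 probe, slc2a1a was higher, and vegfaa lay within 2 spot errors. Among the 11 probes, 6 were lower and 1 was higher by 2-fold or more. Without normalization between arrays 2 were lower (egln3 probe 1 and ero1a) and 2 higher (slc2a1a and vegfaa). Over all 36027 detected probes, 6.1% were lower and 9.45% higher by that much, and nothing is read from the excess because this contrast chose the genes. The 24 hpf difference was larger than 2 spot errors for 9 of 11 probes, all except ldha probe 2 and vegfaa. The share of all detected probes past 2 spot errors was not computed, so nothing is read from this count. Over the whole array 13958 detected probes passed 1.5-fold at 24 hpf. At 96 hpf no probe reached 2-fold.

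**Figure D1:**
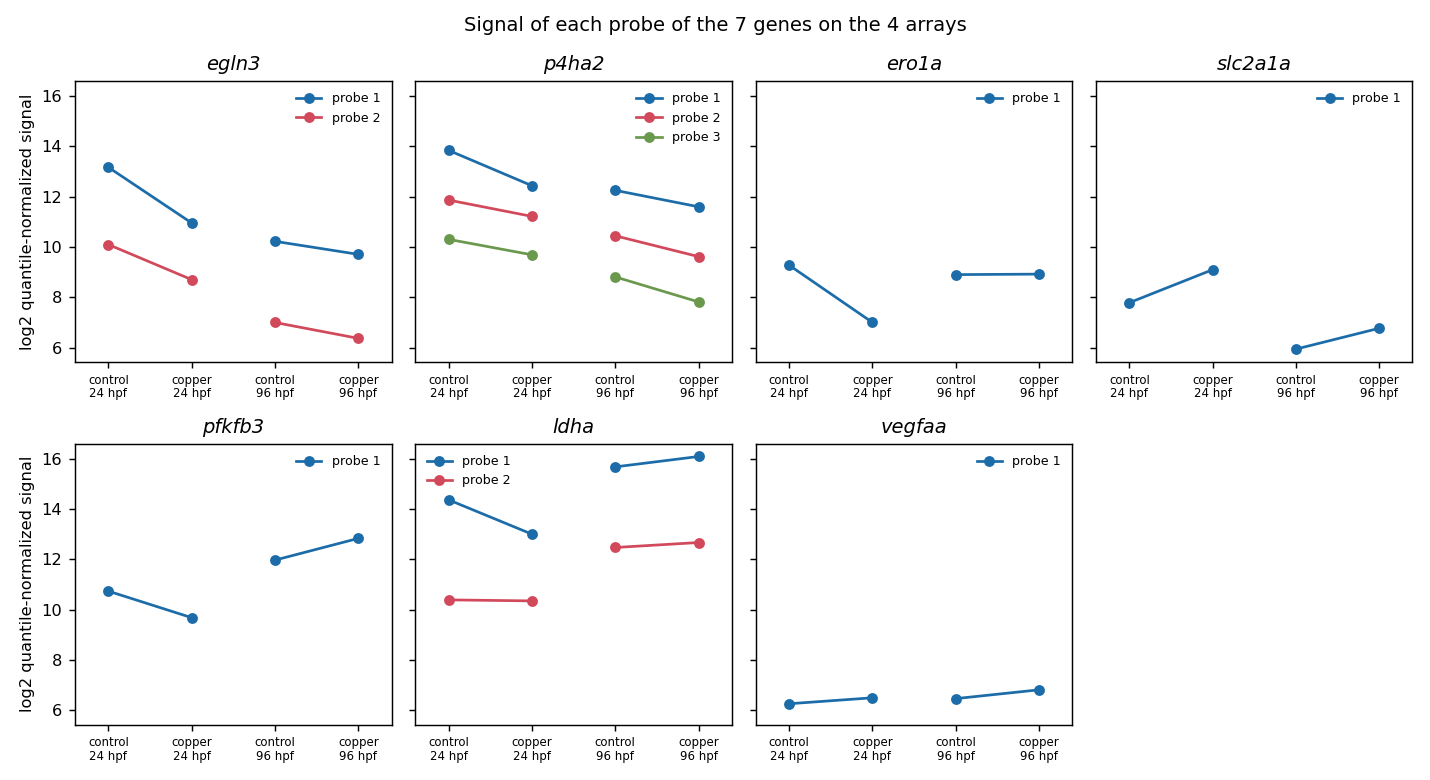
Quantile-normalized log2 signal (y axis) of each probe of the 7 genes on the 4 arrays (x axis), with 1 point per array and lines joining the 2 arrays of an age. The copper-labelled array at 24 hpf lies below its control for egln3, p4ha2, ero1a, pfkfb3 and ldha and above it for slc2a1a, and vegfaa stays between 6.26 and 6.81.

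The oxygen-sensing member is egln3, a prolyl hydroxylase that marks hypoxia-inducible factor subunits for degradation and whose own transcription the factor drives. Its probes are listed on Zv9 at chr17:9776824-9776883 and chr17:9780092-9780151, both on the minus strand, with starts 3268 bases apart. Whether they lie in exons or in an untranslated region is not given in the sources used here.

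Probe 1 of egln3 had a log2 signal of 13.17 in control and 10.95 in copper at 24 hpf, and of 10.23 and 9.71 at 96 hpf. Probe 2 had 10.10 and 8.70 at 24 hpf, and 6.996 and 6.367 at 96 hpf. With both probes the control embryos at 24 hpf were highest and the copper-labelled embryos at 96 hpf lowest, in the same order of the 4 arrays. Before normalization the signal of probe 1 was 9761 in control and 3124 in copper at 24 hpf, and 993 and 696 at 96 hpf.

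The difference of egln3 at 24 hpf was -2.21 ± 0.20 (spot error) on the log2 scale with probe 1, a 4.64-fold lower signal. Probe 2 gave -1.40, or 2.63-fold lower. At 96 hpf the probes gave -0.52 and -0.63, 1.43-fold and 1.55-fold lower. Both probes therefore had one sign at both ages, with a gap between them of 0.82 at 24 hpf and 0.11 at 96 hpf. Of all detected probes, 99.9% had a higher difference than probe 1 at 24 hpf. Nothing is read from that rank because this contrast chose the gene.

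Of the other genes of oxygen sensing, 10 of 16 listed were measured. At 24 hpf 1 was lower by 2-fold and none higher, and their median difference was -0.27, beside -0.26 for all 12332 genes taken by their brightest probe. Of those genes, 6.13% were lower and 3.58% higher at 24 hpf. The lower one was arnt2, a beta-subunit partner, with 6.04 in control and 4.55 in copper. The paralog egln1b, the other egln gene measured, had 11.73 and 11.71 at 24 hpf and 11.68 and 11.14 at 96 hpf.

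At 96 hpf epas1b, an alpha subunit, was higher in copper at 10.36 against 9.20, and hif1al2 was lower at 6.05 against 7.59, a difference of -1.53 that was -0.93, under 2-fold, after normexp background correction. The median over the 10 genes was -0.14, and over all genes -0.05; 5.67% of all genes were higher and 2.16% lower by 2-fold at 96 hpf. The asparaginyl hydroxylase gene hif1an, which blocks the factor's activating domain, had differences of -0.90 and -0.43 at the 2 ages, both under 2-fold.

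The collagen member is p4ha2, an alpha subunit of the prolyl hydroxylase of the endoplasmic reticulum that lets the collagen triple helix form. Its probe 1 is listed on Zv9 at chr21:41503387-41503446, minus strand. The other probes of p4ha2 are not in the authors' deposited table of probes past 2-fold.

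Probe 1 of p4ha2 had 13.84 in control and 12.44 in copper at 24 hpf, and 12.25 and 11.60 at 96 hpf. Probe 2 had 11.87 and 11.22, and 10.45 and 9.62. Probe 3 had 10.30 and 9.69, and 8.81 and 7.81. All 3 probes put the arrays in the same order, descending from control at 24 hpf through copper at 24 hpf and control at 96 hpf to copper at 96 hpf.

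The copper differences of p4ha2 at 24 hpf were -1.41 with probe 1, -0.65 with probe 2 and -0.61 with probe 3. At 96 hpf they were -0.65, -0.83 and -0.996, the last a 1.99-fold lower signal and so just inside the 2-fold threshold. The probes had the same sign at both ages, but only probe 1 passed 2-fold at 24 hpf. Without normalization between arrays, probe 1 was at -0.86 at 24 hpf and so under 2-fold, probe 2 was at -0.02 and probe 3 turned to 0.25.

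The paralogs of p4ha2 did not all run the same way. p4ha1b had 14.10 in control and 12.92 in copper at 24 hpf and 11.89 and 10.00 at 96 hpf, differences of -1.19 and -1.89. p4ha1a had 5.73 and 6.51 at 24 hpf, and its 2 probes had opposite signs there.

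Among 13 measured genes of collagen hydroxylation and folding, out of 16 listed, 2 were higher and 1 lower by 2-fold at 24 hpf. The higher ones were chains of cartilage collagens, col2a1a at 14.38 in copper against 11.76 in control and col9a1a at 5.89 against 4.82; the lower one was p4ha1b. The list median was 0.39 at 24 hpf, beside -0.26 over all genes, of which 3.58% were higher and 6.13% lower. At 96 hpf 12 of 13 genes had a difference below 0, with 3 lower by 2-fold, none higher and a median of -0.42. Over all genes the 96 hpf median was -0.05, with 2.16% lower and 5.67% higher by 2-fold. Besides p4ha1b, the lower listed genes were the collagen chaperone serpinh1b, at 12.48 against 13.96, and the lysyl hydroxylase plod1a, at 12.01 against 13.19.

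The member for oxidative folding is ero1a, an oxidase of the endoplasmic reticulum that passes electrons from protein disulfide isomerase to oxygen. Its probe, under the older name ero1l, is listed on Zv9 at chr17:14859670-14859729, minus strand. The signal was 9.278 in control and 7.002 in copper at 24 hpf, and 8.90 and 8.92 at 96 hpf. The copper-labelled array at 24 hpf was the lowest of the 4 and the other arrays lay within 0.38 of each other.

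The ero1a difference was -2.28 at 24 hpf, a 4.84-fold lower signal. That was below egln3 probe 1 with quantile normalization, and above it under the other 3 scalings, with -2.02 against -2.41 at the 75th percentile. At 96 hpf it was 0.02, within the spot error. The 96 hpf sign depended on scaling, with -0.0006 without normalization. The gene had no second named probe to set beside this value. The paralog ero1b, with 3 of 3 probes lower at 24 hpf, had 9.77 in control and 8.94 in copper, and 9.50 and 10.16 at 96 hpf.

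None of the 11 measured genes of oxidative protein folding, out of 12 listed, passed 2-fold at either age. Their median difference was 0.14 at 24 hpf and -0.32 at 96 hpf, beside -0.26 and -0.05 over all genes. By 2-fold, 3.58% of all genes were higher and 6.13% lower at 24 hpf, and 5.67% and 2.16% at 96 hpf. The ero1a value at 24 hpf lay below the lowest of its list, ero1b at -0.83. Nothing is read from that place because ero1a was chosen on its copper difference.

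Glucose uptake and its conversion to lactate are represented by slc2a1a, pfkfb3 and ldha. slc2a1a encodes a glucose transporter of the plasma membrane. pfkfb3 makes the sugar bisphosphate that activates phosphofructokinase, and ldha reduces pyruvate to lactate.

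The slc2a1a probe spans a listed interval of 145 bases on Zv9, chr23:22506373-22506517, plus strand. It had a log2 signal of 7.78 in control and 9.10 in copper at 24 hpf, and of 5.94 and 6.77 at 96 hpf. The copper-labelled array was the brighter one at both ages, by 1.31 (2.48-fold) at 24 hpf and 0.83 (1.78-fold) at 96 hpf. It was the only one of the 7 genes higher in copper by 2-fold at 24 hpf, and it remained above 2-fold under all 4 scalings, from 1.13 to 2.47.

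The pfkfb3 probe, at chr4:24560227-24560286 on the minus strand of Zv9, had 10.74 in control and 9.68 in copper at 24 hpf. At 96 hpf it had 11.97 and 12.84. The copper-labelled array was thus the lower one at 24 hpf, by 1.06 or 2.08-fold, and the higher one at 96 hpf, by 0.86 or 1.82-fold. The 24 hpf value was just past 2-fold, and was under it at -0.97 after normexp and at -0.25 without normalization between arrays.

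For ldha, probe 1 lies at chr25:25749754-25749813 on the minus strand of Zv9. It had 14.37 in control and 13.00 in copper at 24 hpf, and 15.68 and 16.09 at 96 hpf. Probe 2, not in the authors' deposited table, had 10.39 and 10.35, and 12.47 and 12.67. At 24 hpf the probes differed: probe 1 gave -1.37 (2.58-fold lower) and probe 2 gave -0.04, within its spot error. Without normalization probe 1 was at -0.80, under 2-fold.

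The probe 2 value of ldha was 0.02 with 75th-percentile scaling, so its sign at 24 hpf was not fixed. At 96 hpf the probes of ldha gave 0.41 and 0.20, both above 0. A further probe, which the authors' deposited table names ldha and the RefSeq accessions do not, lies at chr25:25749740-25749799 and shares 46 bases with probe 1. Its normalized values gave -1.32 at 24 hpf and 0.21 at 96 hpf, but it reads nearly the same sequence as probe 1 and adds no separate one.

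**Figure D2:**
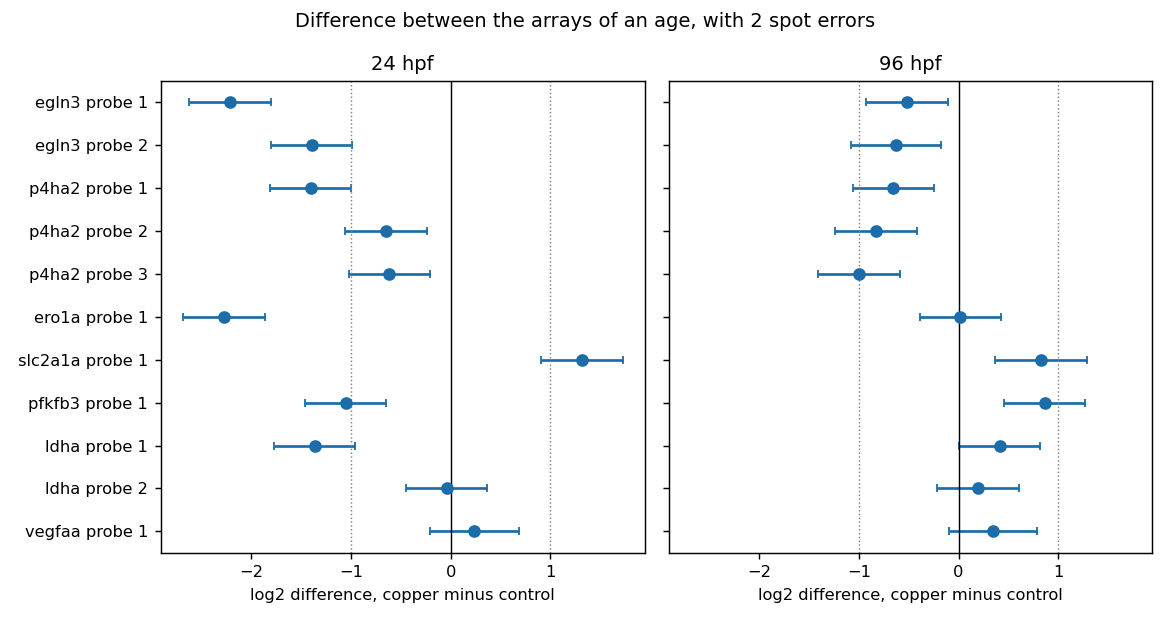
Log2 difference between the copper-labelled and the control array (x axis) for each probe (y axis) at 24 and 96 hpf; bars show 2 spot errors and dotted lines mark 2-fold. At 24 hpf ero1a at -2.28 and egln3 at -2.21 lie farthest below 0 with this quantile normalization, and at 96 hpf no point lies beyond a dotted line.

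Other genes of glucose and lactate metabolism, 44 measured of 56 listed, had a median difference of -0.41 at 24 hpf, with 37 below 0, none higher and 3 lower by 2-fold. At 96 hpf the median was 0.27, with 9 below 0, 4 higher and 1 lower by 2-fold. Over all genes the medians were -0.26 and -0.05. By 2-fold, 3.58% of all genes were higher and 6.13% lower at 24 hpf, and 5.67% and 2.16% at 96 hpf. Each gene was taken by its brightest probe, and other probes of a gene could differ in sign at 24 hpf. There gapdh had 1 probe lower and 3 higher and pkma 2 and 4, while pgam1a had 3 lower and none higher. At 24 hpf the pyruvate dehydrogenase subunit pdha1b had 9.95 in control and 6.28 in copper, and the phosphoglycerate mutase pgam1a had 13.90 and 12.87. At 96 hpf the aldolase aldoca was at 8.22 and 9.64, the liver-type transporter slc2a2 at 10.09 and 11.31, and the glucose-phosphate isomerase gpib at 11.02 and 5.84.

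Paralogs of pfkfb3 and ldha were under 2-fold at both ages. pfkfb1 had -0.64 and 0.67 with both its probes agreeing in sign, the same pair of signs as pfkfb3. pfkfb4a had -0.52 and -0.27, and pfkfb4b had -0.64 and -0.02. Of the other lactate dehydrogenase genes, ldhba had 0.17 and -0.01, ldhbb had -0.23 and 0.60, and ldhd had -0.62 and 0.62.

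The vessel-growth member is vegfaa, the ligand that drives endothelial cells to divide and migrate. Its signal was 6.26 in control and 6.49 in copper at 24 hpf, and 6.46 and 6.81 at 96 hpf, the narrowest range of the 11 probes. The copper differences of 0.24 and 0.35, or 1.18-fold and 1.27-fold, lay within 2 spot errors. Without normalization the 24 hpf value was 1.42, past 2-fold, where the median of all probes was 0.79.

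Of 15 listed relatives and receptors of vegfaa, 10 were measured. At 24 hpf 1 was higher and none lower by 2-fold, with a median of -0.24; at 96 hpf none passed and the median was -0.12. The higher one was the receptor kdr, at 7.19 in copper against 6.03 in control. Over all genes the medians were -0.26 and -0.05. By 2-fold, 3.58% of all genes were higher and 6.13% lower at 24 hpf, and 5.67% and 2.16% at 96 hpf. The ligands vegfc and vegfd had -0.76 and -0.50 at 24 hpf and 0.03 and 0.05 at 96 hpf.

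Among 42 measured genes of 51 listed as other targets of the hypoxia pathway, 5 were higher and 10 lower by 2-fold at 24 hpf. Of all genes, 3.58% were higher and 6.13% lower at that age. The list median was -0.32, and -0.20 after normexp background correction. Of the 10 lower genes, 3 were not well above background on both 24 hpf arrays. At 96 hpf 5 of the 42 were higher and 1 lower, with a median of 0.11, beside 5.67% and 2.16% of all genes. At 24 hpf the transcriptional repressor mxi1 was higher in copper, at 8.67 against 7.15, as was insig1, a regulator of sterol synthesis, at 9.54 against 8.16. The lysyl oxidase relative loxl2a was lower, at 5.66 against 6.88, and so was the mitophagy receptor bnip3lb, at 11.55 against 12.77, although its 2 probes had opposite signs.

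At 96 hpf igfbp1b, which binds insulin-like growth factors, was at 12.42 in copper and 10.42 in control. The stress-induced inhibitor of mTOR signalling ddit4 was at 9.22 and 7.26. Over all 129 measured genes of the 6 lists, of 165 listed, 8 were higher and 15 lower by 2-fold at 24 hpf. At 96 hpf 10 were higher and 6 lower. Of all genes, 3.58% were higher and 6.13% lower at 24 hpf, and 5.67% and 2.16% at 96 hpf. The list medians were -0.28 and 0.06, against -0.26 and -0.05 over all genes. After normexp background correction the list counts were 5 higher and 7 lower at 24 hpf, and 8 higher and 4 lower at 96 hpf. Of all 36027 detected probes, 1731 were then higher and 482 lower at 24 hpf, and 1109 and 290 at 96 hpf.

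Of the listed genes named at 24 hpf, 5 were under 2-fold after normexp background correction, with arnt2 at -0.54, col9a1a at 0.44, kdr at 0.54, loxl2a at -0.68 and pgam1a at -0.95.

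**Figure D3:**
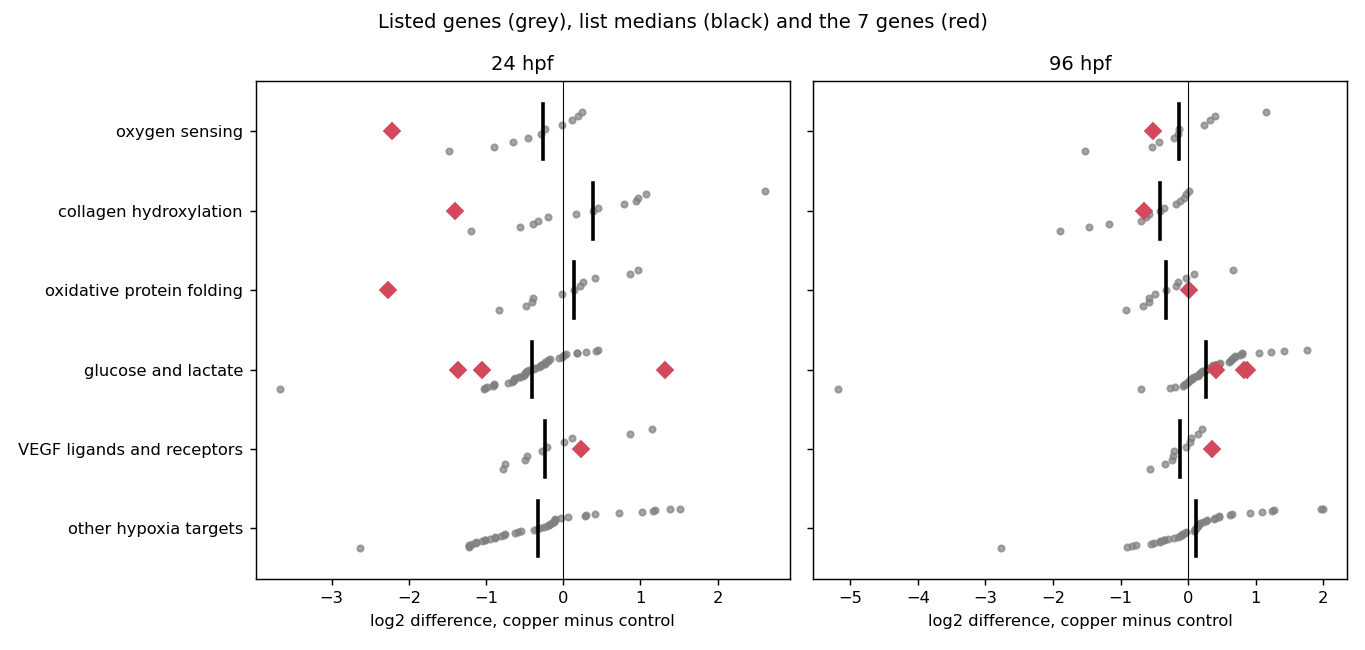
Log2 difference between the copper-labelled and the control array (x axis) at 24 and 96 hpf for the measured genes of the 6 lists (grey points, brightest probe, 1 row per list), with list medians as black bars and the 7 genes as red diamonds. At 24 hpf egln3, p4ha2 and ero1a lie below every other gene of their lists, slc2a1a lies above every other gene of its list, and the medians lie between -0.41 and 0.39. The 7 genes were chosen on their copper differences, so nothing is read from their places at 24 hpf.

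At 96 hpf none of the 11 probes passed 2-fold, where 8.36% of all detected probes did. At a threshold of 1.5-fold, 4 were lower, namely egln3 probe 2 and all 3 probes of p4ha2, and 2 were higher, slc2a1a and pfkfb3. After normexp background correction egln3 probe 2 at -0.34 and slc2a1a at 0.56 were under 1.5-fold, and the others stayed past it. Over all detected probes 11.3% were lower and 11.1% higher by 1.5-fold. The 96 hpf difference was larger than 2 spot errors for 8 of 11 probes, all except ero1a, ldha probe 2 and vegfaa. Nothing is read from this count either, as the share of all detected probes past 2 spot errors was not computed.

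Levels of cell-type markers differed between the arrays at 96 hpf. The summed signal of 5 hatching gland markers was 31711 in control and 6772 in copper, with all 5 well above background on both. Of these markers only the transcription factor gene klf17 was higher in copper, at 9.84 against 9.29, with 3 of 3 probes higher. The 5 measured markers of pancreas and liver summed to 13616 and 191831, and the 5 photoreceptor markers to 146254 and 405265. At 24 hpf the hatching gland markers summed to 382428 in control and 354661 in copper, and the erythrocyte markers to 358801 and 337736. Muscle markers summed to 471875 and 475758 at 24 hpf, and to 588838 and 481235 at 96 hpf. Epidermis markers summed to 439612 and 482647 at 24 hpf, and to 418143 and 362378 at 96 hpf. The pancreas markers ctrb.1 and cpa5 and the opsins opn1lw2 and opn1sw1 were not well above background at 24 hpf. At 96 hpf 5 erythrocyte markers summed to 287018 in control and 169975 in copper, and 4 notochord markers to 10788 and 7356. The 5 endothelial markers summed to 6996 and 9838, but only etsrp (2.12) and kdrl (0.20) were higher in copper and the median difference was -0.13. The part of these marker differences in the values of the 7 genes was not tested.

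How bright a probe was moved with the 24 hpf difference across the whole array. In 6289 genes with 2 or more detected probes, the dimmest probe gave a higher 24 hpf difference than the brightest by a median of 0.51, and the probes of 27.7% of these genes lay 2-fold or more apart. At 96 hpf the median was -0.09 and the share 2.43%. In egln3, p4ha2 and ldha the dimmest probe was likewise higher at 24 hpf, by 0.82, 0.79 and 1.32. The part of probe brightness, and of the brighter copper-labelled array, in these values was not tested.

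Measured against the median probe of the same array pair, the 24 hpf values of the members moved less with the scaling than the plain differences did. Relative to it, egln3 probe 1 lay between -2.44 and -2.10 over the 4 scalings, ero1a between -2.16 and -1.80, and slc2a1a between 1.21 and 1.68. ldha probe 2 lay between -0.01 and 0.08. The median probe was at -0.12 after quantile normalization, 0.03 after 75th-percentile scaling, -0.07 after normexp and 0.79 with none. The plain differences did not all shift together. From quantile to 75th-percentile scaling egln3 probe 1 went from -2.21 to -2.41, while ero1a went from -2.28 to -2.02.

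**Figure D4:**
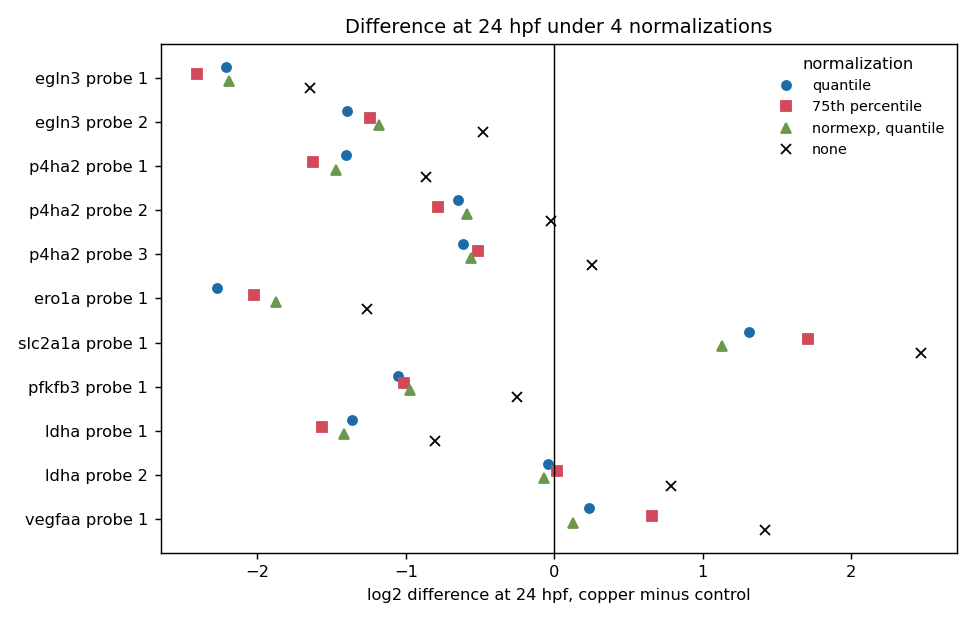
Log2 difference at 24 hpf, copper-labelled minus control (x axis), for each probe (y axis) under 4 normalizations. Values without normalization between arrays (crosses) lie to the right of the others for every probe, and p4ha2 probe 3 and ldha probe 2 cross 0.

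The change with age was tested by averaging both arrays of an age. The genes were chosen on copper differences, but from the same arrays and with earlier results known. The age test is therefore not independent of the choice. limma's moderated test was fitted to all 36027 detected probes with age and copper as terms, which leaves 1 residual degree of freedom. In that fit the residual is the gap between the copper differences at the 2 ages, which includes the 24 hpf difference used for the choice. The gap mixes any real difference in copper response between the ages with noise of single arrays. With no replicate arrays, the p-values do not measure a spread between replicates. Of the 11 probes, 3 rose and 6 fell from 24 to 96 hpf at a Benjamini-Hochberg adjusted p under 0.05, where 14.9% of all probes rose and 15.7% fell.

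Both probes of egln3 fell with age, by 2.10 ± 0.46 (SE) on the log2 scale with probe 1 (limma adjusted p = 0.00718) and by 2.72 ± 0.48 with probe 2 (limma adjusted p = 0.00215). All 3 probes of p4ha2 fell, by 1.21 ± 0.34 (limma adjusted p = 0.0222), 1.51 ± 0.39 (limma adjusted p = 0.0145) and 1.68 ± 0.44 (limma adjusted p = 0.0158). The fall of slc2a1a was 2.09 ± 0.48 (limma adjusted p = 0.00895). For these 6 probes both arrays at 96 hpf lay below both arrays at 24 hpf.

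pfkfb3 rose by 2.19 ± 0.47 (limma adjusted p = 0.00655). ldha rose by 2.20 with both probes, with SEs of 0.36 (limma adjusted p = 0.00158 and 0.0015). The ldha probes, which differed in the 24 hpf copper comparison, thus gave the same age change. For these 3 probes both arrays at 96 hpf lay above both at 24 hpf.

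The age change of ero1a did not pass the test, at 0.77 ± 0.58 (limma adjusted p = 0.345), with -0.38 between the control arrays and 1.92 between the copper-labelled arrays. vegfaa had 0.26 ± 0.49 (limma adjusted p = 0.734). For vegfaa and the other 9 probes the sign was the same within control and within copper-labelled arrays.

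With the low-signal filter removed, 4 of the 11 probes passed rather than 9, and with eBayes run without its trend 8 passed. Without the copper-labelled array at 24 hpf, the one that stood apart in brightness, 5 passed, 2 rising and 3 falling. In that fit slc2a1a had a limma adjusted p of 0.0966 and pfkfb3 of 0.0659. The call of p4ha2 probe 1 also went without the control array at 24 hpf, at 0.34, and without the copper-labelled array at 96 hpf, at 0.16. Probes 2 and 3 of p4ha2 passed only in the fit without the control array at 96 hpf, with adjusted p between 0.0559 and 0.183 in the others. Without the control array at 24 hpf egln3 probe 1 had a limma adjusted p of 0.106, and ero1a passed, at 0.0244.

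**Figure D5:**
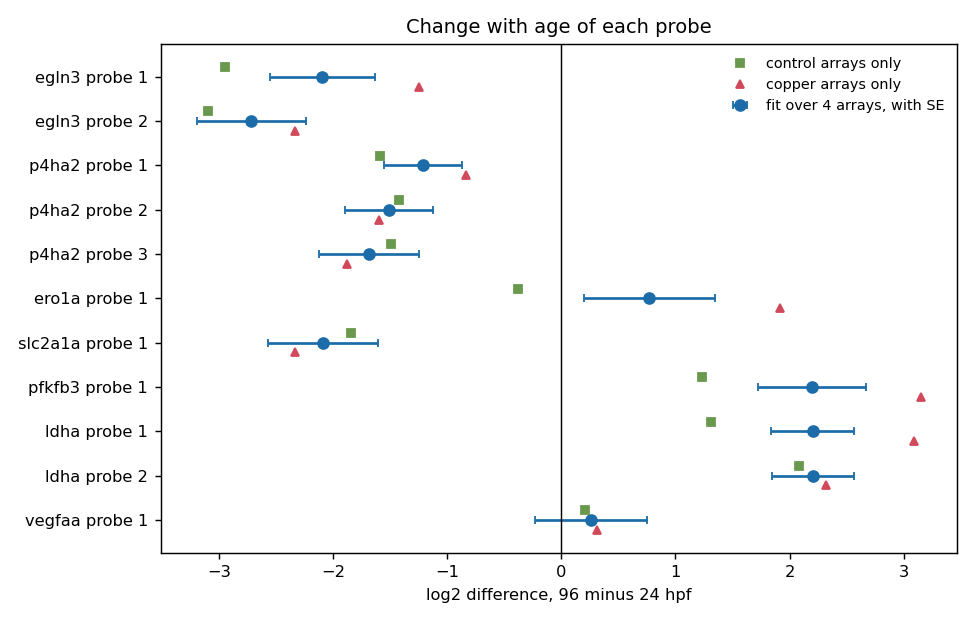
Log2 difference between 96 and 24 hpf (x axis) for each probe (y axis), from the fit over 4 arrays with its standard error (circles and bars) and between the 2 control (squares) or the 2 copper-labelled arrays (triangles). The egln3, p4ha2 and slc2a1a probes lie below 0 and the pfkfb3 and ldha probes above it in all 3, and the ero1a squares and triangles lie on opposite sides.

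Among the 44 other genes of glucose and lactate metabolism, 25 rose with age and none fell, with a median of 1.19, where 17.3% of all genes rose and 15.1% fell and the median over all genes was -0.10. The muscle enzymes pkmb, a pyruvate kinase, and pfkma, a phosphofructokinase, rose by 5.61 and 5.52. In the collagen list 5 rose and 2 fell, with col9a1a up by 5.26 and col1a1a by 1.62, while p4ha1b fell by 2.57 and serpinh1b fell by 1.91.

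In oxygen sensing epas1b rose by 1.77 and hif1an fell by 1.03. In oxidative folding the sulfhydryl oxidase qsox1 rose by 1.17, and in the VEGF list none passed. Among other targets 11 rose and 4 fell. The lysyl oxidase loxa rose by 6.91 and ndrg1b, a stress-responsive gene, by 5.56, while the transferrin receptor tfr1a fell by 3.43 and the chemokine receptor cxcr4a by 1.99. tfr1a was not well above background on the copper-labelled array at 96 hpf.

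The members' patterns over the 4 arrays, each centred on its own mean, were set against 11412 genes well above background on all 4 arrays. With 4 points, small distances are common and are given as a description. For egln3 probe 1 the nearest gene was tead3b, at a root-mean-square distance of 0.17 on the log2 scale, followed by bach1a at 0.22. p4ha2 lay nearest zgc:162171 (0.06) and arhgap11a (0.13), and ero1a nearest sult1st7 (0.22) and cd99 (0.23).

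slc2a1a lay nearest b3gnt2b (0.22) and nup98 (0.31). For pfkfb3 the nearest were zgc:101731 and c1ql3b, both at 0.06. ldha probe 1 lay nearest map2k1 (0.08) and rgs18 (0.08), and vegfaa nearest atp5mj and azi2, both at 0.04. Among the members themselves pfkfb3 and ldha were the closest pair, at 0.19, and slc2a1a and ldha the farthest apart, at 2.35.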

How the data were processed

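Each array's intensity values are the processed signals that the authors deposited, per the file headers background-subtracted by Agilent Feature Extraction 11.0.1.1. Per the labels, labelling followed Quick Amp version 5.7, and GeneSpring GX 11.5.1 made the authors' deposited table, whose log2 fold column served for coordinates and direction; 16 of its per-sample columns were not used. Spots flagged as outliers were left out, spots of a probe averaged, values put on the log2 scale and quantile-normalized (limma 3.58.1, R 4.3.3). A probe was detected if 2 or more of the 4 arrays had it well above background. Symbols came from RefSeq accessions, which named 25957 of 43569 probes; 34 of 43603 were left out.

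Age was tested with limma's lmFit and eBayes (trend) with Benjamini-Hochberg adjustment over all detected probes. The fit was also run on simulated arrays with the same noise level for every probe and no copper effect. Such arrays hold no difference in copper response between the ages, so that run does not check the p-values given here. Copper differences had no test. The 7 genes and the 6 lists (other genes of each role, taken by their brightest probe) were chosen with earlier results of these data known. Listed genes were named for the 2 largest differences in a direction past the threshold, well above background on both arrays of the age. Paralogs of the 7 genes were named as well. plod1a was named after its values were seen, and gapdh and pkma were named outside this rule for their probe signs. Alternatives were 75th-percentile scaling, normexp (offset 50), no normalization, other filters, a 1.5-fold threshold and other age models. Labels do not say that arrays are separate cultures.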

Additional observations from a re-analysis of the deposited data

Results flagged for a closer look

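After quantile normalization ero1a, pfkfb3 and ldha had copper differences of opposite sign at the 2 ages, with 1 array on each side of each comparison, and none of these contrasts between ages was tested. ero1a had -2.28 at 24 hpf and 0.020 at 96 hpf, the latter within the spot error. pfkfb3 had -1.06 and 0.86, each beyond 2 spot errors. ldha had -1.37 and 0.41 with probe 1, and -0.040 and 0.197 with probe 2, whose values lay within 2 spot errors at both ages. The signs of ero1a at 96 hpf (0 after normexp, -0.0006 without normalization) and of ldha probe 2 at 24 hpf (0.022 with 75th-percentile scaling) depended on the scaling, while those of pfkfb3 and ldha probe 1 were the same under all 4 scalings.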

How the results depend on the processing

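No paired analysis was possible because each group holds 1 array and all arrays carry the same replicate number. Recomputed under the other settings, 59 of 62 values of the members' brightest probes kept their sign. The 3 others were ero1a's, at 0 (normexp) and -0.0006 (no normalization) for copper at 96 hpf and -0.38 for age within control arrays. After normexp, probes past 2-fold numbered 2213 at 24 hpf and 1399 at 96 hpf, against 5604 and 3011, and listed genes at 24 hpf 12 against 23. Without normalization 14444 probes and 4 member probes (2 higher, 2 lower) passed at 24 hpf, against 5604 and 7 (1 higher, 6 lower). Detection on all 4 arrays left 1841 probes at 96 hpf. At 1.5-fold, 13958 probes and 53 listed genes passed at 24 hpf, and 8058 probes, 39 listed genes (16 at 2-fold) and 6 member probes (0 at 2-fold) at 96 hpf. With no filter, 6265 probes, 31 listed genes and 4 member probes passed for age, against 11030, 50 and 9.

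Leaving out each array in turn, chosen after the data were seen and with the lone array of an age assumed to vary like the other age, gave 5 to 9 member probes, 7166 to 10903 probes and 36 to 55 listed genes for age. The share of calls higher in copper at 24 hpf was 60.8%, and 84.5% with 75th-percentile scaling, 78.2% with normexp and 99.55% with none. At 96 hpf it was 62.2%, and 79.3% with normexp. The share rising with age was 48.6%, and 32.3% without normalization. Among listed genes the share of 24 hpf calls higher in copper was 34.8%, and 46.4% with 75th-percentile scaling. That share was 93.3% without normalization and 57.9% with the mean of a gene's probes. The number of arrays limits precision. The conflict between labels and file names bears on the signs of the copper differences and not on their sizes, which moved with the scaling.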
